A study of Mus musculus with 6 samples.

Results

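The proteasome is the protease complex that degrades proteins tagged with ubiquitin. Its genes were taken as the rows of the count table whose symbol is Psm, a letter from a to g and a number, which gave 48 genes of 27131 rows, with no symbol on more than 1 row. They comprise 14 subunits of the 20S core, 17 of the 19S cap, 3 immunoproteasome subunits, 2 tissue-specific 20S subunits, 4 activators, the inhibitor Psmf1 and 7 assembly chaperones. Polyadenylated RNA came from a pair of androgen-sensitive pelvic muscles, levator ani/bulbocavernosus (LA/BC), of 3 mice with the genotype 113Q and 3 with the genotype WT, all 14 weeks old and on standard chow. The 113Q mice are from a knock-in model of spinal and bulbar muscular atrophy (SBMA), a disease in which the androgen receptor carries an expanded glutamine tract. The labels give no strain, litter or batch, and name separate mice. The values are Cuffdiff estimated counts, that is, fragments assigned to each gene. They summed to 67897870, 70531556 and 73873481 in the 113Q libraries and to 43581087, 68983982 and 65405514 in the WT libraries.

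The 20S core is a barrel of stacked rings. Its outer rings are made of alpha subunits, which gate the entry, and its inner rings of beta subunits, of which Psmb5, Psmb6 and Psmb7 carry the chymotrypsin-like, caspase-like and trypsin-like active sites. The 19S cap sits on the end of the barrel, where its receptors bind ubiquitin chains, its lid removes them and its ring of ATPases unfolds the substrate and threads it into the core. Immune cells and cells exposed to interferon replace the active subunits by Psmb8, Psmb9 and Psmb10. Transcription of most subunit genes is raised together by NRF1 (gene Nfe2l1) when proteasome activity is low, through the antioxidant response element. In skeletal muscle the ubiquitin-proteasome route is known for breaking down myofibrillar proteins during atrophy.

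Relative to the other genes of the muscle, 26 of the 46 proteasome genes that could be tested were lower in 113Q than in WT, 0 were higher and 20 did not pass (edgeR quasi-likelihood test, Benjamini-Hochberg adjusted p below 0.05). Over all 16960 genes tested, 18.1% were called lower and 16.5% higher (34.6% in either direction), so the share of proteasome genes called lower, 56.5%, was above that background. At an unadjusted p below 0.05, 0 members were higher, and DESeq2 and limma voom also called 0 higher. The median log2 fold change of the members was -0.37, beside 0.01 over all genes tested. In 31 members every 113Q library lay below every WT library, and in 0 members above (24.8% and 25.1% of all genes). The 2 members that were not tested had too few counts: Psma8, the core subunit of the testis proteasome, had 2, 0 and 9 estimated counts in 113Q mice and 0, 2 and 5 in WT mice, and Psmb11, the catalytic subunit of the thymus, had 3, 2 and 1 in both. The members called lower were constitutive subunits and 2 activators, while the immunoproteasome subunits, the inhibitor and the assembly chaperones held 0 calls in edgeR (DESeq2 and voom each called 1 chaperone, Psmg1, lower).

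The direction depends on what the counts are scaled to. The 20 most abundant genes, none of them a proteasome gene, held 13.6, 14.6 and 15.3% of the counts in 113Q libraries against 30.0, 31.6 and 30.7% in WT libraries. The TMM factors used for the values here were 1.32, 1.27 and 1.26 in 113Q libraries and 0.775, 0.768 and 0.794 in WT libraries, and so differ by genotype. Without such factors all genes had a median log2 fold change of 0.73, and of 0.43 with library totals that leave out those 20 genes. With library totals alone 31 members were called higher and 1, Psmd6, lower. Leaving the 20 genes out of the totals gave 14 higher and 6 lower, namely Psma7, Psmb2, Psmb7, Psmd4, Psmd6 and Psme4. Relative to the median of all genes, 41 of 46 members were below that median under TMM and 42 under library totals. A change of scaling shifts all genes nearly alike. A member's place relative to that median can therefore hardly change, and the likeness of these counts is not read as a result. As a share of all counts the 48 genes made up 0.569, 0.565 and 0.551% in 113Q libraries and 0.501, 0.445 and 0.463% in WT libraries. Outside the 20 most abundant genes the shares were 0.659, 0.661 and 0.650% in 113Q libraries and 0.716, 0.650 and 0.668% in WT libraries, and the groups overlapped. CPM below use library sizes adjusted by these TMM factors, and "lower" and "higher" mean relative to the other genes. In RNA from whole muscle, fewer cells of a type and less RNA per cell cannot be told apart.

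**Figure D1:**
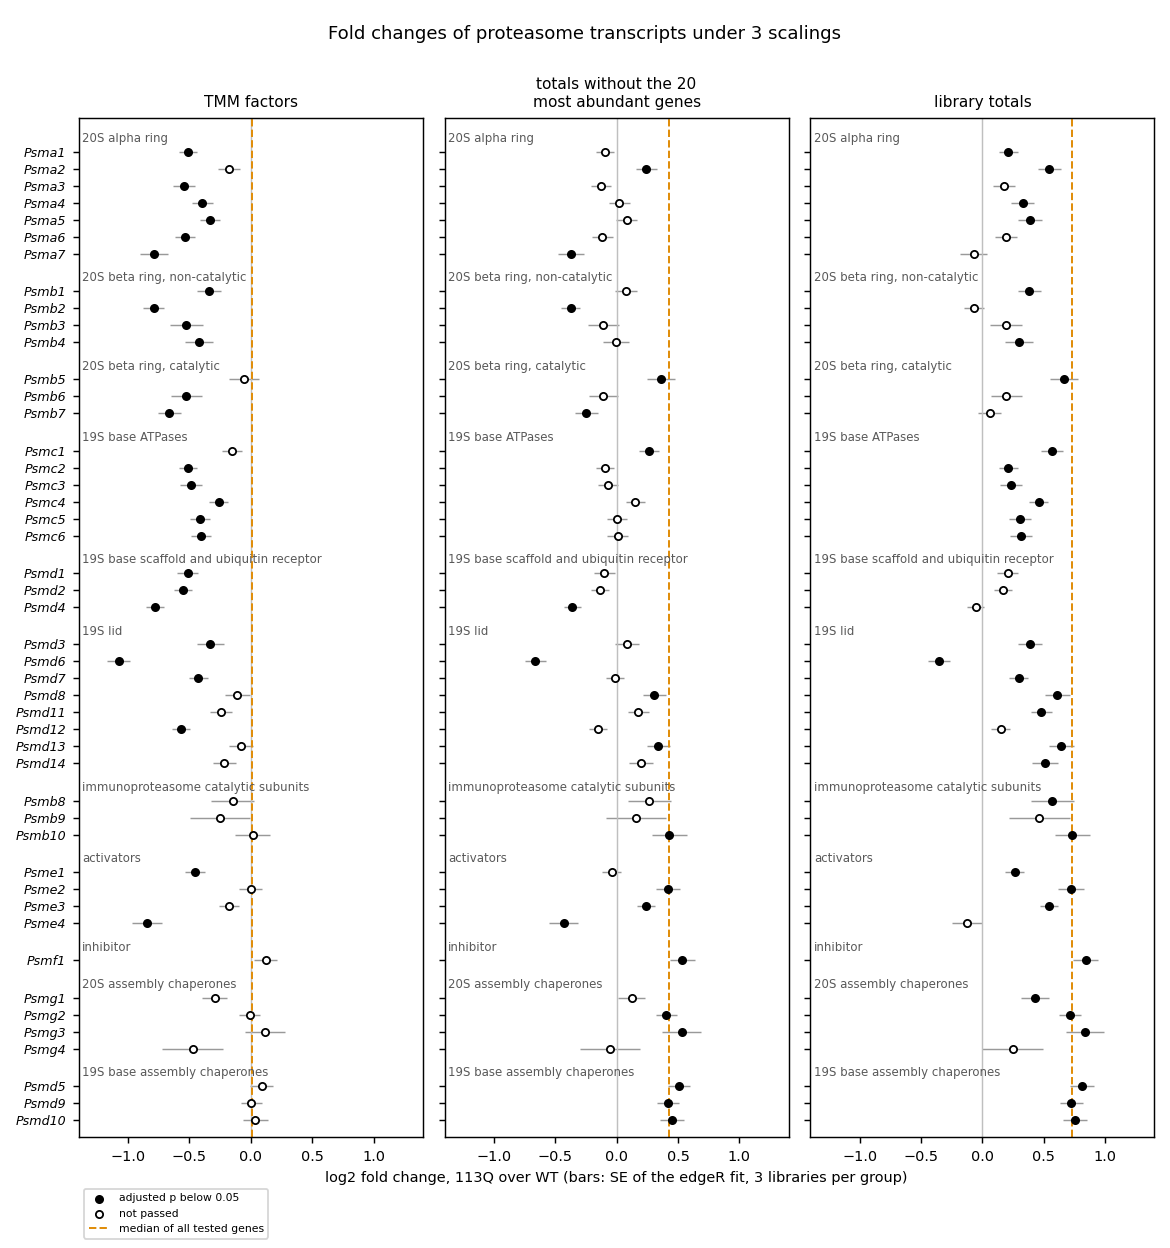
Log2 fold change of each tested proteasome gene (113Q minus WT) with TMM factors (left), with totals that leave out the 20 most abundant genes (middle) and with library totals alone (right); bars are the SE of the edgeR fit, filled points passed the test and the dashed line is the median of all genes. The members move up with that median, with 41, 41 and 42 of the 46 below it, and most turn positive with library totals alone. A change of scaling shifts all genes nearly alike, so their place relative to the median is nearly fixed.

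**Figure D2:**
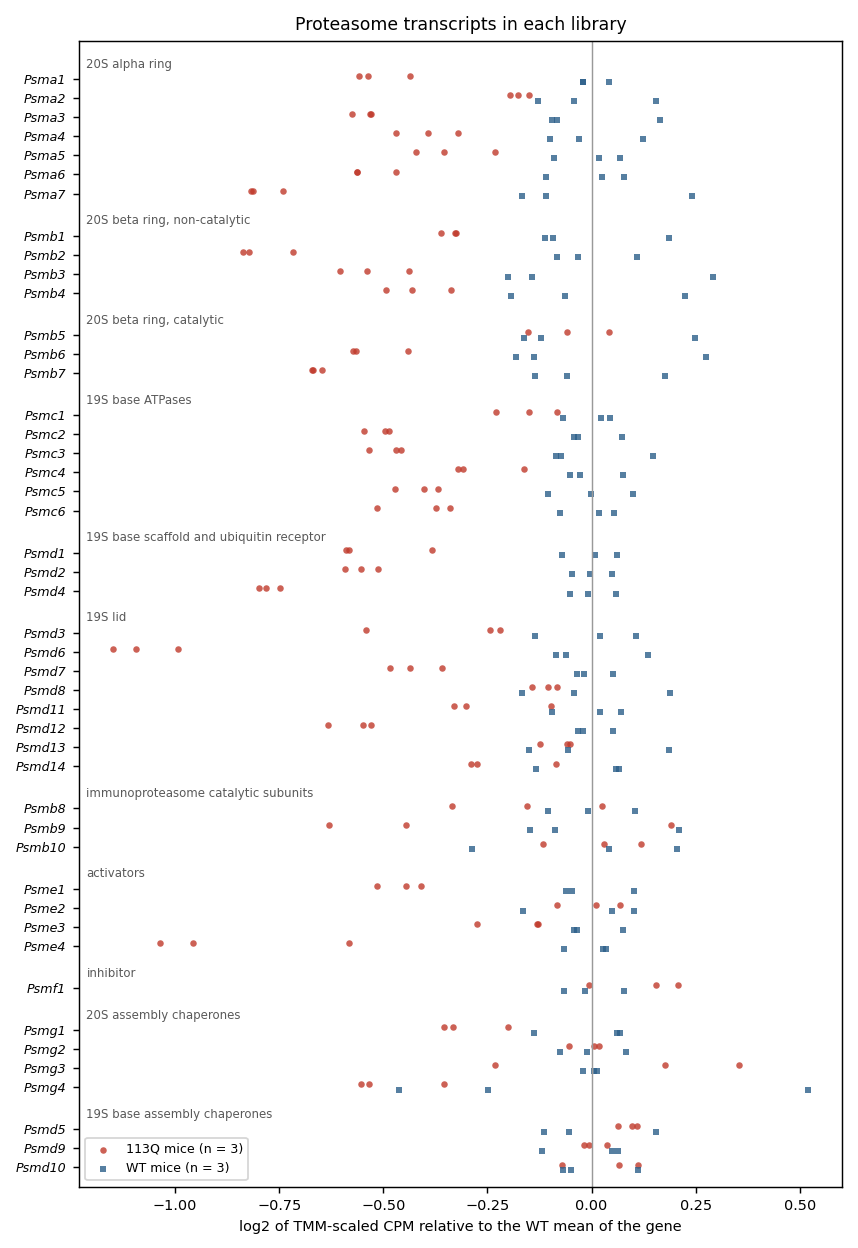
Level of each tested proteasome gene in each library (CPM, shown relative to the WT mean on a log2 scale), grouped by role, with 113Q mice as circles and WT mice as squares. Most 20S core and 19S cap genes have all 113Q points below all WT points with this scaling, while immunoproteasome genes and assembly chaperones lie around the WT mean; with library totals alone most members lie above it.

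The alpha ring forms the gate of the core. Of its 7 genes 6 were lower in 113Q. With TMM factors every 113Q library lay below every WT library in all 7, and in 24.8% of all genes tested. The median log2 fold change was -0.51 (0.21 with library totals alone and -0.094 with totals that leave out the 20 most abundant genes). Psma7 was the alpha subunit with the largest change. Psma7 stood at 72.5, 76.5 and 72.7 CPM in 113Q mice 1 to 3, against 151, 119 and 114 CPM in WT mice 1 to 3. All 113Q libraries were below all WT libraries, of which WT mouse 1 was the highest (log2 fold change -0.79, SE 0.11, edgeR adjusted p = 0.00118). Psma1 had 102, 95.2 and 93.8 CPM in 113Q mice 1 to 3, against 136, 142 and 136 CPM in WT mice 1 to 3. Here too the groups did not overlap (log2 fold change -0.51, SE 0.074, edgeR adjusted p = 0.00122). Psma3, Psma4, Psma5 and Psma6 were also called lower, with log2 fold changes of -0.54, -0.39, -0.33 and -0.53. Psma2 had 82.3, 79.7 and 80.8 CPM in 113Q mice 1 to 3, against 102, 83.6 and 88.7 CPM in WT mice 1 to 3, groups that did not overlap but missed the threshold (log2 fold change -0.17, SE 0.089, edgeR adjusted p = 0.166). The call on Psma5 was lost without 1 mouse in some fits (edgeR adjusted p = 0.0628 without 113Q mouse 2 and 0.0741 without 113Q mouse 3).

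The 4 non-catalytic beta subunits were all lower in 113Q, with a median log2 fold change of -0.47 (0.25 with library totals alone and -0.056 with totals that leave out the 20 most abundant genes). Psmb2 had 60.5, 59.9 and 65.1 CPM in 113Q mice 1 to 3, against 115, 105 and 101 CPM in WT mice 1 to 3. Its groups were well separated (log2 fold change -0.79, SE 0.082, edgeR adjusted p = 2.49e-04). Psmb3 had 82.8, 79.2 and 88.8 CPM in 113Q mice 1 to 3, against 147, 105 and 109 CPM in WT mice 1 to 3. WT mouse 1 was the highest, and the lowest WT library was still above all 113Q libraries (log2 fold change -0.53, SE 0.13, edgeR adjusted p = 0.0166). Psmb1 and Psmb4 had log2 fold changes of -0.34 and -0.42. The calls on 3 of these genes depended on single mice. For Psmb3 the edgeR adjusted p was 0.0567 without 113Q mouse 1 and 0.0665 without 113Q mouse 2. For Psmb1 it was 0.0631 without 113Q mouse 1, 0.0884 without 113Q mouse 2 and 0.0773 without 113Q mouse 3, and for Psmb4 0.077 without 113Q mouse 1 and 0.075 without 113Q mouse 2. Across the 14 subunits of the core, WT mouse 1, the library with the fewest counts, was the highest of the 6 libraries in 13. Without it the core's median log2 fold change was -0.36, against -0.52 with it, and the same 12 core subunits were called lower.

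Of the 3 catalytic subunits, Psmb7 and Psmb6 were lower in 113Q and Psmb5 did not pass (median log2 fold change -0.52; 0.19 with library totals alone and -0.11 with totals that leave out the 20 most abundant genes). Psmb7, with the trypsin-like site, had 212, 216 and 212 CPM in 113Q mice 1 to 3, against 381, 307 and 324 CPM in WT mice 1 to 3. The groups were apart by more than either spread (log2 fold change -0.66, SE 0.10, edgeR adjusted p = 0.00129). Psmb6, with the caspase-like site, had 126, 126 and 137 CPM in 113Q mice 1 to 3, against 226, 165 and 169.7 CPM in WT mice 1 to 3. WT mouse 1 was again the highest (log2 fold change -0.52, SE 0.13, edgeR adjusted p = 0.0131), and the adjusted p was 0.0534 without 113Q mouse 2. Psmb5, with the chymotrypsin-like site that proteasome inhibitor drugs bind, had 116, 124 and 133 CPM in 113Q mice 1 to 3, against 153, 115 and 118 CPM in WT mice 1 to 3. These groups overlapped: WT mouse 1 was the highest library and WT mouse 2 the lowest (log2 fold change -0.054, SE 0.12, edgeR adjusted p = 0.761). Exons of Psmb7 (chr2:38588036-38644087, minus strand, mm10) share 405 bases, 34.9% of their length, with Nek6 on the other strand, and whether the counting used strand is not given in the sources, so reads of the 2 genes cannot be told apart there.

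Ratios of genes within a library do not depend on the scaling. Psmb5 amounted to 54.7, 57.3 and 62.5% of Psmb7 in 113Q libraries and 40.2, 37.5 and 36.5% in WT libraries, by estimated counts. Against Psmb6 it was 91.9, 98.5 and 96.6% in 113Q libraries and 67.8, 70.0 and 69.8% in WT libraries. Both ratios were higher in every 113Q library than in any WT library. They were chosen after the values of these genes were seen and were not tested. Measured against the mean of the 31 core and cap subunits, 53.8% of all genes tested were above WT in every 113Q library. Processed pseudogenes of Psmb5, Psmb6 and Psmb7 lie elsewhere in the genome annotation and have no row in the count table.

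The promoters of the members were read for the sequence that NRF1 binds, since the catalytic subunits moved to different degrees. RefSeq windows on GRCm38.p6, 250 bases before to 50 after the start, were found for 40 members, 43 windows in all. Psmb7 had no window, so its promoter was not read. The antioxidant response element core TGACNNNGC, on either strand, was in 6 of the 43 windows (14.0%), beside 12.4% of 32851 windows of all genes. In Psmb5 it lies 47 bases before the start on the sense strand and in Psmb6 9 bases before the start on the sense strand. It is also in the windows of Psme4, Psmd9, Psmd12 and Psmc6. The CCAAT box was in 14 windows (32.6%, against 37.4% of all windows), 5 of them among the 8 windows of the alpha ring. The interferon-stimulated response element core (GAAA, any 2 bases, GAAA) was in 5 windows (11.6%, against 3.44%), those of Psmd4, Psmd9, Psmb3, Psmg4 and Psme1. With the 250 bases before the start alone, the members' shares were 11.6%, 32.6% and 6.98% for the 3 motifs, beside 10.2%, 33.8% and 2.98%. The windows shown are Psmb5 and Psmb6, which hold the element and differ in their change, Psme4 and Psmd9, which also hold it, Psme4 called lower and Psmd9 not, and Psmd6, the gene with the largest change, which holds none of the 3 motifs. Sequences run 5′ to 3′ on the strand of the gene, and capitals mark a match to any of the motifs. Psmb5 is at chr14:54617946-54618245, minus strand, Psmb6 at chr11:70525107-70525406, plus strand, Psme4 at chr11:30771525-30771824, plus strand, Psmd9 at chr5:123227940-123228239, plus strand, and Psmd6 at chr14:14120896-14121195, minus strand.
Psmb5: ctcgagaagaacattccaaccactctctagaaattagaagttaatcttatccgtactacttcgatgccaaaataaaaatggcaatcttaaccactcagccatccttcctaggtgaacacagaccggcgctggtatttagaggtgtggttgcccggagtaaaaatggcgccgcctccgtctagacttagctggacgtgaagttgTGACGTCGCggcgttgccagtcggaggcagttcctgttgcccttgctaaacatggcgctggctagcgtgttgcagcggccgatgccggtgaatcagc
Psmb6: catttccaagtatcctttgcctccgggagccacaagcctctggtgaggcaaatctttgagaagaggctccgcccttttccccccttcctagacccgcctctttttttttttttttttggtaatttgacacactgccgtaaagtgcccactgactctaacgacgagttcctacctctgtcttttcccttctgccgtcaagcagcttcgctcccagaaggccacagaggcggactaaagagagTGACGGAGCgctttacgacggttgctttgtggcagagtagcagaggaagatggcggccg
Psme4: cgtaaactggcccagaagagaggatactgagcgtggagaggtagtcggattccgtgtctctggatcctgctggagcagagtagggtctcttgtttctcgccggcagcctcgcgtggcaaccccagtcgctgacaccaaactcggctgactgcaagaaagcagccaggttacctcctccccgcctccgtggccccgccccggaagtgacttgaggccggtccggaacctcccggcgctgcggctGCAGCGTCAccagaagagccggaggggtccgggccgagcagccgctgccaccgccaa
Psmd9: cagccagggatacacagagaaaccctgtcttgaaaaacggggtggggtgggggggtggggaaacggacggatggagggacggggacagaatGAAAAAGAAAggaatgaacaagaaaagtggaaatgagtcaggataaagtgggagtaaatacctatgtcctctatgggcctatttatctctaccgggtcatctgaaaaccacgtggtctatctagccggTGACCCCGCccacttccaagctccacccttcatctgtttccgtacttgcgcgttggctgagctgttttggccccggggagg
Psmd6: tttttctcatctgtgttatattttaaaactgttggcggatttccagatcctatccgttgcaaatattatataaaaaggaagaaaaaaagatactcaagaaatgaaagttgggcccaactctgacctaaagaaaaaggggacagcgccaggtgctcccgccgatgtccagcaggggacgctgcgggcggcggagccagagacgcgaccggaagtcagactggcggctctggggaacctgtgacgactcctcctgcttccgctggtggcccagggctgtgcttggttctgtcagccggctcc

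A match is a description of these letters and not a binding site. Genes with the antioxidant response element core were found among those called lower (Psmb6, Psme4, Psmd12 and Psmc6) and among those that did not pass (Psmb5 and Psmd9), and so were genes without it, such as Psmd6 and Psmb10.

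The immunoproteasome subunits were scarce and 0 of 3 passed (edgeR; 0 before adjustment at p below 0.05, and 0 in DESeq2 or voom), with a median log2 fold change of -0.15 (0.57 with library totals alone and 0.27 with totals that leave out the 20 most abundant genes). Psmb8, which replaces Psmb5, had 3.28, 4.21 and 3.72 CPM in 113Q mice 1 to 3, against 3.85, 4.45 and 4.12 CPM in WT mice 1 to 3. Psmb9, which replaces Psmb6, had 2.67, 4.72 and 3.03 CPM in 113Q mice 1 to 3, against 3.73, 3.89 and 4.77 CPM in WT mice 1 to 3. Psmb10, which replaces Psmb7, had 11.9, 13.1 and 14.0 CPM in 113Q mice 1 to 3, against 14.8, 10.5 and 13.2 CPM in WT mice 1 to 3. In all 3 the libraries of the groups were mixed, with log2 fold changes of -0.15, -0.25 and 0.015 and edgeR adjusted p = 0.552, 0.473 and 0.949. Psmb8 shares 186 exon bases with an antisense transcript and Psmb9 shares 212 with Tap1, the peptide transporter gene beside it, on the other strand.

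Set against the subunit it replaces, Psmb10 was the only 1 of the 3 whose groups did not overlap. Psmb10 amounted to 5.60, 6.09 and 6.58% of Psmb7 in 113Q libraries and 3.89, 3.43 and 4.08% in WT libraries, 1.60 times higher. All 113Q libraries were above all WT libraries (difference of log2 ratios 0.68; SD 0.12 in 113Q and 0.13 in WT, n = 3 each; two-sided exact permutation p = 0.1, the smallest that 3 against 3 allow, and 0.3 adjusted over the 3 ratios). Of the 2 genes, Psmb7 was called lower and Psmb10 did not pass. The log2 fold change of Psmb10, 0.015, was near the median of all genes tested, 0.013. On a related measure, against the mean of the 31 core and cap subunits, 53.8% of all genes tested were above WT in every 113Q library. The ratio is therefore not read as particular to Psmb10. Psmb8 was 2.83, 3.41 and 2.80% of Psmb5 in 113Q libraries and 2.51, 3.87 and 3.48% in WT libraries (difference -0.11, exact permutation p = 0.6). Psmb9 was 2.11, 3.76 and 2.21% of Psmb6 in 113Q libraries and 1.65, 2.36 and 2.81% in WT libraries (difference 0.23, exact permutation p = 0.6). In these the groups overlapped, and the sign of each turned when 1 library was left out, to 0.022 without WT mouse 2 for Psmb8 and to -0.040 without 113Q mouse 2 for Psmb9.

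**Figure D3:**
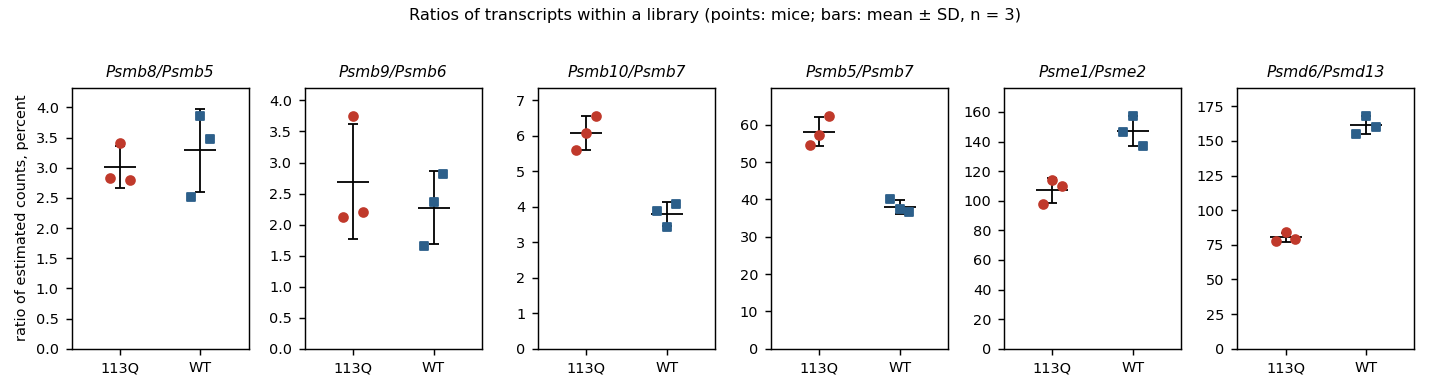
Ratios of estimated counts within a library, in percent, for the 3 immunoproteasome pairs and for the pairs Psmb5/Psmb7, Psme1/Psme2 and Psmd6/Psmd13, with 1 point per mouse, the mean and SD (n = 3), and 113Q left of WT. Psmb10 against Psmb7 lies between 5.60% and 6.58% in 113Q mice, above the 3.43% to 4.08% of WT mice, the groups overlap for Psmb8/Psmb5 and Psmb9/Psmb6, and they are apart for the pairs chosen after the values were seen.

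The 19S cap had 12 of 17 genes lower in 113Q and 5 that did not pass, with a median log2 fold change of -0.41 (0.31 with library totals alone and 0.0018 with totals that leave out the 20 most abundant genes). With TMM factors every 113Q library lay below every WT library in 14 of the 17, and in 24.8% of all genes tested. Of the 6 ATPases that unfold the substrate, 5 were lower. Psmc2 had 122, 122 and 118 CPM in 113Q mice 1 to 3, against 180.4, 168 and 167 CPM in WT mice 1 to 3. Psmc3 had 230.4, 241 and 243 CPM in 113Q mice 1 to 3, against 369.6, 314 and 317 CPM in WT mice 1 to 3. Both groups of 3 were separate in each gene (log2 fold change -0.51, SE 0.074, edgeR adjusted p = 0.00127 for Psmc2; log2 fold change -0.49, SE 0.090, edgeR adjusted p = 0.004 for Psmc3). Psmc4, Psmc5 and Psmc6 had log2 fold changes of -0.26, -0.41 and -0.41. Psmc1 missed the threshold at -0.15 (edgeR adjusted p = 0.168). The call on Psmc4 was the least firm, with edgeR adjusted p = 0.0836 without WT mouse 1, 0.052 without WT mouse 2, 0.0581 without WT mouse 3, 0.0969 without 113Q mouse 1 and 0.134 without 113Q mouse 2.

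The scaffold and the ubiquitin receptor of the base were lower in all 3 genes, and their median was -0.55 (0.17 with library totals alone and -0.14 with totals that leave out the 20 most abundant genes). Psmd4, the receptor Rpn10 that binds ubiquitin chains, had 143, 144 and 148 CPM in 113Q mice 1 to 3, against 259, 247 and 239 CPM in WT mice 1 to 3. Its 113Q libraries were within a few CPM of each other and far below WT (log2 fold change -0.78, SE 0.074, edgeR adjusted p = 1.63e-04). Psmd2, the scaffold Rpn1 that docks shuttle proteins, had 283, 299 and 291 CPM in 113Q mice 1 to 3, against 425, 441 and 413 CPM in WT mice 1 to 3. Here too the groups were apart (log2 fold change -0.55, SE 0.076, edgeR adjusted p = 9.59e-04). Psmd1, the other large scaffold, had a log2 fold change of -0.51 (edgeR adjusted p = 0.0029). Its exons share 301 bases with the same-strand gene model Gm21972.

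In the lid, which holds the enzyme that clips ubiquitin off, 4 of 8 genes were lower (median -0.28; 0.44 with library totals alone and 0.13 with totals that leave out the 20 most abundant genes). Psmd6 (chr14:14112174-14120984, minus strand, mm10), the lid subunit Rpn7, had the largest change of all members. Psmd6 stood at 90.3, 96.9 and 87.0 CPM in 113Q mice 1 to 3, against 212, 182 and 185 CPM in WT mice 1 to 3. Every 113Q library was far below every WT library (log2 fold change -1.08, SE 0.090, edgeR adjusted p = 9.26e-05). It was the member that was called lower under every scaling tried, with a log2 fold change of -0.36 with library totals alone. Psmd12, the lid subunit Rpn5, had 114, 116 and 108 CPM in 113Q mice 1 to 3, against 174, 164 and 165 CPM in WT mice 1 to 3. Its groups did not overlap (log2 fold change -0.57, SE 0.074, edgeR adjusted p = 7.13e-04). Psmd3 and Psmd7 were also called lower, at -0.33 and -0.43 on the log2 scale. For Psmd3 the edgeR adjusted p was 0.131 without WT mouse 1, 0.0939 without WT mouse 2, 0.124 without 113Q mouse 1, 0.0673 without 113Q mouse 2 and 0.0827 without 113Q mouse 3. Psmd14, the deubiquitinase Rpn11, was at -0.21 and did not pass (edgeR adjusted p = 0.108). Psmd8, Psmd11 and Psmd13 did not pass either, at -0.11, -0.24 and -0.078. Psmd6 and Psmd13, which sit in the same lid, were the lid genes with the largest and the smallest change. Psmd6 counts were 78.1, 84.2 and 79.1% of Psmd13 counts in 113Q libraries and 155, 168 and 160.2% in WT libraries, a ratio chosen after its values were seen and not tested.

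Of the 4 activators, which open the gate of the core in place of the cap, Psme4 and Psme1 were lower in 113Q and 2 did not pass (median -0.32; 0.40 with library totals alone and 0.10 with totals that leave out the 20 most abundant genes). Psme4, the activator PA200, had 176, 228 and 166 CPM in 113Q mice 1 to 3, against 326, 349.5 and 348 CPM in WT mice 1 to 3. The 113Q libraries varied more than the WT ones and stayed below them (log2 fold change -0.84, SE 0.12, edgeR adjusted p = 0.00131). Psme1 and Psme2 form a mixed ring, PA28 alpha and beta, that interferon induces. Psme1 had 41.7, 43.7 and 44.8 CPM in 113Q mice 1 to 3, against 63.9, 57.1 and 57.6 CPM in WT mice 1 to 3. Psme2 had 42.6, 38.4 and 40.9 CPM in 113Q mice 1 to 3, against 43.6, 36.2 and 42.0 CPM in WT mice 1 to 3. Psme1 was lower in every 113Q library (log2 fold change -0.46, SE 0.079, edgeR adjusted p = 0.00297), while Psme2 overlapped between the groups (log2 fold change 0.0011, SE 0.093, edgeR adjusted p = 0.995). Psme1 counts were 97.7, 114 and 109.6% of Psme2 counts in 113Q libraries and 147, 158 and 137% in WT libraries, a ratio also chosen after the fact and not tested. Psme3, the nuclear activator PA28 gamma, had 60.0, 66.3 and 66.4 CPM in 113Q mice 1 to 3, against 70.5, 76.4 and 70.8 CPM in WT mice 1 to 3. Its libraries did not overlap, but the difference was small and missed the threshold (log2 fold change -0.18, SE 0.079, edgeR adjusted p = 0.12). A copy of Psme2, Psme2b, is annotated elsewhere and has no row in the count table. Psmf1, the inhibitor PI31, had 23.1, 20.6 and 23.9 CPM in 113Q mice 1 to 3, against 19.8, 20.5 and 21.9 CPM in WT mice 1 to 3. Its groups overlapped and it did not pass (log2 fold change 0.12, SE 0.10, edgeR adjusted p = 0.375).

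Assembly chaperones bind subunits while the complex is built and leave the finished particle. Of these 0 of 7 passed in edgeR, with 1, Psmg1, at an unadjusted p below 0.05 and called lower by both DESeq2 and voom, and the median log2 fold change was 0.0045 (0.72 with library totals alone and 0.42 with totals that leave out the 20 most abundant genes). Psmg1, a chaperone of the alpha ring, had 17.0, 15.3 and 15.5 CPM in 113Q mice 1 to 3, against 20.5, 17.7 and 20.4 CPM in WT mice 1 to 3. All 113Q libraries were just below the WT range (log2 fold change -0.29, SE 0.10, edgeR adjusted p = 0.0558). Psmg4 had 5.08, 5.15 and 5.83 CPM in 113Q mice 1 to 3, against 10.7, 5.41 and 6.27 CPM in WT mice 1 to 3. WT mouse 1 was far above the other WT mice, and WT mouse 2 lay within the 113Q range (log2 fold change -0.47, SE 0.25, edgeR adjusted p = 0.183). The chaperones of the cap base, Psmd5, Psmd9 and Psmd10, had log2 fold changes between 0.0045 and 0.091. Psmd5 had 28.5, 29.4 and 29.2 CPM in 113Q mice 1 to 3, against 30.4, 26.3 and 25.2 CPM in WT mice 1 to 3. Psmd10, the oncoprotein gankyrin, had 16.5, 18.1 and 18.7 CPM in 113Q mice 1 to 3, against 18.7, 16.8 and 16.5 CPM in WT mice 1 to 3. Both overlapped between the groups (edgeR adjusted p = 0.495 and 0.802). Psmg2 and Psmg3 did not pass (log2 fold changes -0.0096 and 0.12).

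Compared with the complex itself, measured as the mean log2 estimated count of the 31 core and cap subunits in the same library, no scaling factor enters. On this measure Psmd6 was at -0.35, -0.26 and -0.41 in 113Q libraries and 0.31, 0.28 and 0.29 in WT libraries, below the mean subunit in 113Q and above it in WT. Psmb5 was at 0.011, 0.089 and 0.20 in 113Q libraries and -0.15, -0.37 and -0.35 in WT libraries, the opposite order. Among the 31 subunits, 7 were below WT in every 113Q library (Psma3, Psma7, Psmb2, Psmb7, Psmd4, Psmd6 and Psmd12) and 8 above (Psma2, Psmb1, Psmb5, Psmc1, Psmc4, Psmd8, Psmd13 and Psmd14). The mean is taken over these same 31 genes, so their differences balance by construction. The split into both directions is therefore not read as a result. Of the 15 tested members outside the core and cap, 9 were above WT in every 113Q library and 0 below. They were Psmb10, Psmd5, Psmd9, Psmd10, Psme2, Psme3, Psmf1, Psmg2 and Psmg3. Measured against the same mean, 53.8% of all genes tested were above WT in every 113Q library and 8.71% below, so 9 of 15 is near the background.

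Levels per length differed between the roles, and the ranges of several roles overlapped. Mean CPM per kilobase of exon ran from 27.8 (Psma2) to 184 (Psmb7) for the 20S core in 113Q, against 31.4 to 291 in WT. The 19S cap ran from 19.4 (Psmd11) to 116 (Psmc3) in 113Q and from 23.0 to 163 in WT. Chaperones ran from 6.61 to 21.3 in 113Q and 6.21 to 21.5 in WT, and immunoproteasome subunits from 2.30 to 9.91 in 113Q and 2.54 to 9.82 in WT. Psmb7 was the highest member in both groups. Psmb6, at 163 in 113Q and 234 in WT, was next, and in 113Q Psmb5 (138) and Psmb4 (132) followed with ranges that overlap.

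As a percent of the summed per-length level of the 20S core in the same library, the 19S cap amounted to 90.4, 93.9 and 88.0% in 113Q libraries and 82.1, 93.8 and 90.7% in WT libraries, so the groups overlapped. The activators amounted to 10.2, 10.9 and 10.1% in 113Q libraries and 8.70, 10.3 and 10.2% in WT libraries, again overlapping. The minor groups were higher relative to the core in every 113Q library. So were most genes on the related measure against the mean of the 31 subunits (53.8% of all genes tested), so nothing particular to these groups is read from it. Immunoproteasome subunits were at 1.02, 1.27 and 1.16% in 113Q libraries and 0.799, 0.822 and 0.940% in WT libraries. The 20S chaperones were at 4.33, 4.48 and 4.46% in 113Q libraries and 3.48, 3.42 and 3.61% in WT libraries. The chaperones of the cap base were at 2.23, 2.36 and 2.33% in 113Q libraries and 1.50, 1.65 and 1.65% in WT libraries. Psmf1 was at 0.452, 0.408 and 0.456% in 113Q libraries and 0.241, 0.309 and 0.319% in WT libraries. These shares were not tested.

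The calls also followed abundance. Of the 34 members that averaged 50 to 500 CPM, 26 were called lower (76.5%), with a median log2 fold change of -0.44. Of all 3007 genes in that range 39.1% were called lower and 14.1% higher, and their median was -0.16. Of the 12 members under 50 CPM, which include the immunoproteasome subunits and the chaperones, 0 were called in either direction by edgeR (1, Psmg1, had p below 0.05 before adjustment and was called lower by DESeq2 and voom), and their median was 0.0028. Among all 13743 genes in that lower range 12.6% were called lower and 17.2% higher. Across the 46 members the log2 fold change and the mean CPM had a Spearman correlation of -0.633, a description over genes of the same 6 libraries. The ranges were chosen after the values were seen, and the part of abundance in the difference between roles was not tested.

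Genes that work with the proteasome were taken from lists of its partners and regulators. Over all genes tested 18.1% were called lower and 16.5% higher. Among genes averaging 50 to 500 CPM the shares were 39.1% and 14.1%. The share called lower was 50% of the partners, 16.7% of the NRF1 list and 55.6% of the COP9 signalosome. It was 33.3% of the ubiquitin list, 33.3% of the p97 list and 10% of antigen processing. Of 16 tested partners without a Psm symbol (receptors, shuttles, deubiquitinases and maturation factors), 8 were lower, 3 were higher and 5 did not pass (median -0.28; 0.44 with library totals alone and 0.14 with totals that leave out the 20 most abundant genes). Ecpas, a scaffold that tethers the proteasome and is listed as AI314180, had 216, 225 and 197 CPM in 113Q mice 1 to 3, against 306, 362 and 329 CPM in WT mice 1 to 3 (log2 fold change -0.64, SE 0.095, edgeR adjusted p = 0.00135). Zfand2a, an arsenite-inducible factor that binds the 19S cap, went the other way, with 29.9, 25.4 and 27.2 CPM in 113Q mice 1 to 3, against 17.7, 16.9 and 18.2 CPM in WT mice 1 to 3 (log2 fold change 0.64, SE 0.10, edgeR adjusted p = 0.00143). In both genes the groups did not overlap. Paaf1 was in the list and had no row in the table. Adrm1 and Sem1, both subunits of the cap without a Psm symbol, were lower at -0.49 and -0.40. They were chosen after their values were seen.

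Of 12 genes for NRF1, its processing and related factors, 2 were lower, 2 were higher and 8 did not pass (median -0.077; 0.64 with library totals alone and 0.34 with totals that leave out the 20 most abundant genes). At an unadjusted p below 0.05, 3 were lower and 4 higher. DESeq2 called 2 lower and 4 higher, and voom 3 lower and 3 higher. The share called lower by edgeR, 16.7%, was near the 18.1% of all genes tested, so nothing particular to this list is read from the counts. Ddi2, the protease that cleaves NRF1 into its active form, had 16.4, 25.0 and 25.4 CPM in 113Q mice 1 to 3, against 37.8, 47.5 and 43.6 CPM in WT mice 1 to 3. The groups were apart (log2 fold change -0.95, SE 0.18, edgeR adjusted p = 0.00529). Foxo3, a transcription factor active in muscle atrophy, had 10.6, 12.9 and 11.1 CPM in 113Q mice 1 to 3, against 7.61, 7.41 and 6.62 CPM in WT mice 1 to 3, and every 113Q library was above WT (log2 fold change 0.68, SE 0.13, edgeR adjusted p = 0.00514). Nfe2l2, which encodes NRF2, had 71.8, 69.8 and 71.5 CPM in 113Q mice 1 to 3, against 90.6, 89.4 and 89.1 CPM in WT mice 1 to 3 (log2 fold change -0.34, SE 0.067, edgeR adjusted p = 0.00565). Nfe2l1 itself, named for its role after its values were seen, had 982, 1000.3 and 1008 CPM in 113Q mice 1 to 3, against 870.0, 871 and 866 CPM in WT mice 1 to 3. It did not pass (log2 fold change 0.20, SE 0.076, edgeR adjusted p = 0.0765).

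Of the 6 genes for ubiquitin and its activating enzymes, 2 were lower, 1 was higher and 3 did not pass (median -0.16; 0.56 with library totals alone and 0.26 with totals that leave out the 20 most abundant genes). Uba1, the main activating enzyme, had 288, 297 and 310.0 CPM in 113Q mice 1 to 3, against 228, 242 and 251 CPM in WT mice 1 to 3 (log2 fold change 0.31, SE 0.079, edgeR adjusted p = 0.0154). Its groups did not overlap, and the call was lost without 113Q mouse 2 (edgeR adjusted p = 0.0503) or 113Q mouse 3 (0.0641).

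Of 12 genes of the p97 segregase, which pulls ubiquitinated proteins out of complexes before degradation, 4 were lower, 1 was higher and 7 did not pass (median -0.14; 0.58 with library totals alone and 0.27 with totals that leave out the 20 most abundant genes). The cofactor Faf1 had 70.1, 74.8 and 66.8 CPM in 113Q mice 1 to 3, against 128, 126 and 108 CPM in WT mice 1 to 3 (log2 fold change -0.78, SE 0.092, edgeR adjusted p = 4.67e-04). Nploc4 and Ubxn1 were lower at -0.49 and -0.38, with groups that did not overlap. The COP9 signalosome, a complex built like the lid, had 5 of 9 genes lower, 0 higher and 4 that did not pass (median -0.32; 0.40 with library totals alone and 0.10 with totals that leave out the 20 most abundant genes). At an unadjusted p below 0.05 0 were higher there, and 0 by DESeq2 and voom. Cops3 had 66.3, 66.0 and 67.4 CPM in 113Q mice 1 to 3, against 126, 118 and 104 CPM in WT mice 1 to 3 (log2 fold change -0.80, SE 0.086, edgeR adjusted p = 2.97e-04). Cops4 and Cops5, its catalytic subunit, were lower at -0.61 and -0.60. Of 10 genes of antigen processing and its inducers, 1, the peptidase Erap1, was lower at -0.38, 0 were higher and 9 did not pass (median 0.20; 0.91 with library totals alone and 0.61 with totals that leave out the 20 most abundant genes). At an unadjusted p below 0.05, 3 were higher, and DESeq2 called 2 and voom 4. H2-K1, a class I antigen, had 134, 231 and 221 CPM in 113Q mice 1 to 3, against 123, 142 and 123 CPM in WT mice 1 to 3 (log2 fold change 0.59, SE 0.20, edgeR adjusted p = 0.0611). 113Q mouse 1 lay within the range of WT, and without it the adjusted p was 0.00162. The call on Erap1 was lost without 113Q mouse 3 (edgeR adjusted p = 0.0528).

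**Figure D4:**
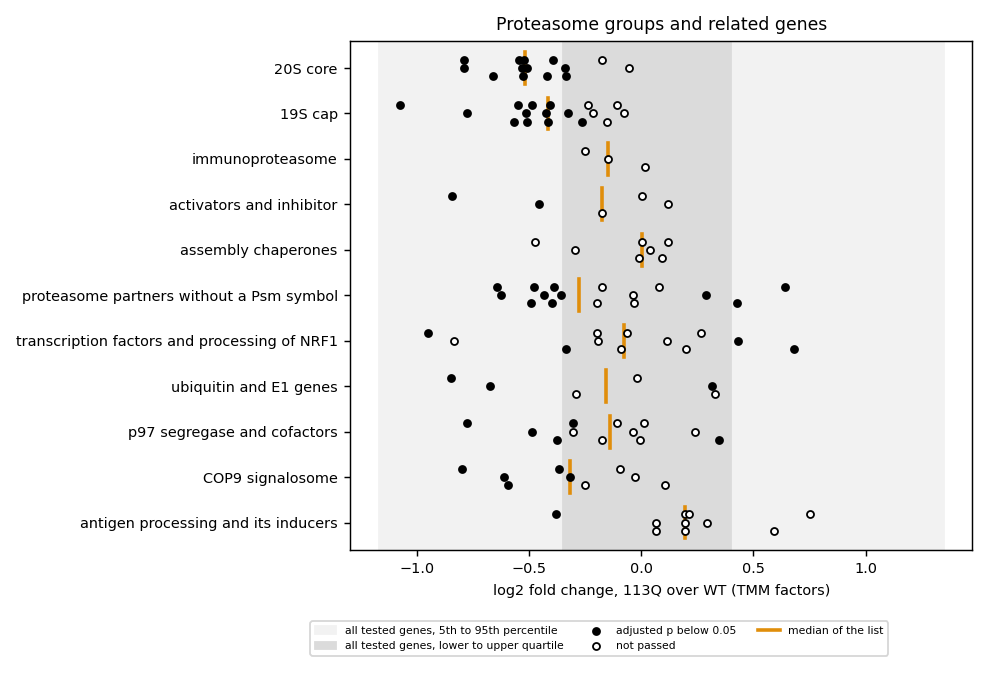
Log2 fold change (113Q minus WT, TMM factors) of every tested gene by group, proteasome roles first and then the partner and regulator lists; the bar is the group's median, filled points passed the edgeR test, and shaded bands hold the central genes of the whole table. The core has its median at -0.52 and the cap at -0.41, and the partner, NRF1, ubiquitin and p97 lists have calls in both directions. With library totals alone all medians are positive, and those of the assembly chaperones and antigen processing already are with TMM factors.

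Markers of the cell types in the tissue differed between the libraries as well. The 8 skeletal myofibre markers were present in all libraries and all lower in 113Q (median -1.73), with summed levels of 41296, 48696 and 49209 CPM in 113Q mice, against 167770.0, 191140.0 and 176350.0 CPM in WT mice. With library totals alone 5 of the 8 were lower (median -1.01). With totals that leave out the 20 most abundant genes 6 were lower (median -1.32). All 8 endothelial markers were lower (median -0.66; 0.055 with library totals alone and -0.25 with totals that leave out the 20 most abundant genes), with sums of 277, 279 and 282 CPM in 113Q mice, against 479.7, 500.4 and 399.8 CPM in WT mice. Of 6 satellite cell markers 4 were higher and 2 did not pass (median 0.73), with sums of 236, 225 and 240.0 CPM in 113Q mice, against 182, 146 and 177 CPM in WT mice. The smooth muscle sum, led by Acta2 and Myh11, was 2799, 1798 and 1306 CPM in 113Q mice, against 354, 601 and 797 CPM in WT mice, and 1 of 6 genes, Acta2, was called higher by edgeR. At an unadjusted p below 0.05 4 of the 6 were higher, DESeq2 and voom each called 4 higher, and in 5 every 113Q library was above every WT library. Of the 6 fibroblast markers 0 passed in edgeR, while 2 were higher before adjustment (p below 0.05), DESeq2 called 2 higher and voom 0, and the sums were 1511, 1136 and 1213 CPM in 113Q mice, against 736, 1059 and 1382 CPM in WT mice. With library totals alone 6 satellite cell, 5 smooth muscle and 5 fibroblast markers were called higher. With totals that leave out the 20 most abundant genes these counts were 6, 3 and 2. The part of the marked cell types in the lower proteasome transcripts was not tested.

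Leukocytes are the main carriers of immunoproteasome subunits, and beside those subunits 0 of 9 tested leukocyte markers passed in edgeR, while 2 were higher before adjustment (p below 0.05), DESeq2 called 2 higher and voom 1. With library totals alone 6 of the 9 were called higher (median 0.81, beside 0.73 over all genes). With totals that leave out the 20 most abundant genes 3 were higher (median 0.50, beside 0.43). The summed level of all 12 listed was 140.2, 167 and 142 CPM in 113Q mice, against 108, 118 and 139 CPM in WT mice. Cd74 and H2-Aa made up most of it, the T cell marker Cd3e was at 0 in WT mice 1 and 3, and the B cell marker Ms4a1 at 0 in 113Q mice 2 and 3 and in WT mouse 2. The epithelial markers summed to 1.52, 49.4 and 85.9 CPM in 113Q mice, against 2.43, 49.1 and 2.56 CPM in WT mice, and Epcam was at 0 in 113Q mouse 1 and WT mouse 1 and at or above 1 CPM in 113Q mice 2 and 3 and WT mouse 2. Of the 8 epithelial markers 0 passed in edgeR, 0 had p below 0.05 before adjustment, and DESeq2 or voom called 0. A term for the libraries with Epcam at or above 1 CPM left 28 members lower, and 15 were lower among the other 3 libraries, where 113Q is 1 mouse, with 0 higher in both. The male germ cell markers, of which 1 of 3 tested (Dazl) was lower, summed to 1.21, 1.33 and 1.07 CPM in 113Q mice, against 2.34, 2.26 and 2.29 CPM in WT mice.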

How the data were processed

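Per the labels' protocols, frozen LA/BC muscle was extracted with Trizol and made into TruSeq mRNA libraries. The authors deposited estimated counts per gene from Cuffdiff 2.1.1 on mm10, and TopHat2 2.0.9, Bowtie2 2.1.0, Cufflinks, cutadapt and FastQC 0.10.0 are also named, per the submitters' processing notes. Which annotation, read filters and strandedness were used is not given in the sources. Estimated counts divide fragments between overlapping genes and close copies, and 12 of the 48 members share exon bases with another gene in GENCODE M21. In each library 5.38% to 5.96% of values were not whole, and values were rounded for the test.

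Groups came from the genotype label, and the labels name separate mice. Counts were compared, 113Q minus WT, with edgeR 4.0.16 in R 4.3.3 (filterByExpr with a minimum count of 10, TMM factors, robust quasi-likelihood F test, two-sided, Benjamini-Hochberg over all 16960 genes tested, threshold 0.05). The filter drew on the counts of all libraries, and 46 members passed it. The SE of a fold change was its log2 value over the root of F. The common biological coefficient of variation was 24.2%. Log2 ratios within libraries were compared by the exact permutation test over the 6 libraries. Levels per length use the union of exons in GENCODE M21, and promoter windows are RefSeq's on GRCm38.p6. The scripts were tested on simulated data. Alternatives were DESeq2 1.42.0, limma voom (3.58.1), other scalings, filters and thresholds, unrounded counts, a fit with no robust step, a replicate block, each mouse left out in turn, and the libraries with Epcam at or above 1 CPM.

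The members and lists were chosen with earlier results of these data known. Values in every library are given for the catalytic subunits and their partners, the activators and Psmf1, the 2 members of each other group with the smallest p, and up to 3 genes of each pathway list. Other genes named were chosen after their values were seen. Single-gene values of some listed genes are not reported here. Protein and reads were not analysed here.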

Additional observations from a re-analysis of the deposited data

How the results depend on the processing

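The count of members called lower was 28 with DESeq2, 27 with voom, 24 to 26 with RLE or upper-quartile factors, other filters or unrounded counts, 25 without robust estimation and 20 to 25 without any 1 mouse, with 0 higher in each. It was 19 at an adjusted p below 0.01 (3424 genes in all) and 28 below 0.1. Scaling changed it most. With library totals alone 11722 genes passed, and of the members 1 was lower and 31 were higher; median log2 fold changes were 0.35 for proteasome members, 0.20 for 20S core, 0.31 for 19S cap, 0.57 for immunoproteasome, 0.40 for activators. Of the 46 tested members 39 had a negative log2 fold change with TMM factors and 5 with library totals alone. Among the genes chosen for single values, which are not all members, the sign turned for Psmb5 0.66, Psmb6 0.19, Psmb7 0.058, Psmb8 0.57, Psmb9 0.46, Psme1 0.26, Psme3 0.54, Psma1 0.21, Psmb3 0.19, Psmc2 0.21, Psmc3 0.23, Psmd2 0.17, Psmd12 0.15, Psmg1 0.43, Psmg4 0.24, Ecpas 0.078, Nfe2l2 0.38, Nploc4 0.23, Ubxn1 0.34, Cops4 0.11, Cops5 0.12, Erap1 0.34. With totals that leave out the 20 most abundant genes 8884 genes passed, 6 members were lower and 14 higher, and medians were 0.051 for proteasome members, -0.10 for 20S core, 0.0018 for 19S cap, 0.27 for immunoproteasome, 0.10 for activators. With these totals 20 members had a negative log2 fold change. Among the genes chosen for single values the sign turned for Psmb5 0.36, Psmb8 0.27, Psmb9 0.16, Psme3 0.24, Psmg1 0.12, Nfe2l2 0.080, Ubxn1 0.040, Erap1 0.035. In the libraries with Epcam below 1 CPM (2 WT mice and 1 113Q mouse, which is assumed to vary like WT) 3127 genes and 15 members passed as lower, medians were -0.28 for immunoproteasome and -0.39 for activators, and the sign turned for Psmb10 -0.24, Psme2 -0.0069, Psmd10 -0.093 and for the log2 ratio of Psmb9 to Psmb6 (-0.028). Psme2, near 0, also turned with DESeq2 (-0.0061), voom (-0.034) and RLE factors (-0.0065), and Psmb5 with voom (0.00048). Psmd9, also near 0, turned with DESeq2 (-0.0025), voom (-0.0061) and RLE factors (-0.0031). Without each mouse in turn the member median ranged over -0.40 to -0.30, the 20S core median -0.55 to -0.36, Psmb5 -0.13 to 0.086, Psmb10 -0.11 to 0.13, Psme2 -0.075 to 0.053, and the log2 ratios -0.29 to 0.022 for Psmb8 to Psmb5, -0.040 to 0.40 for Psmb9 to Psmb6 and 0.61 to 0.74 for Psmb10 to Psmb7. The cause of these shifts was not tested. With the mouse number as a replicate block 4737 genes passed and 23 members were lower. Deviations of same-numbered mice correlated at 0.20, 0.24 and -0.27, and those of different-numbered mice at -0.44 to 0.38. With 3 mice a group these values are tied to each other and cannot settle whether the numbers pair the samples. Depth limits Psma8 and Psmb11, which are near 0 counts, and 3 mice a group limit every single-gene ratio to an exact p of 0.1 or more.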

Other observations

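Some members share exon bases with neighbours, which an unstranded count would mix, and for overlaps on the same strand so would a stranded one. Besides Psmb7, Psmb8, Psmb9 and Psmd1, described above, these are among others Psmg3 with Gm26938 on the same strand (26.8% of its exon length), Psmb5 with the microRNA gene Mir686 on the same strand (12.1%), Psma4 with AY074887 on the other strand (9.8%) and Psmd13 with Sirt3 on the other strand (7.6%). Psmb7 was called lower while Psmb5 and Psmd13 did not pass.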
